A study of Sus scrofa with 14 samples.

Results

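The comparison described here is of gene expression in pig endometrium after estrogen and after control treatment, taken over day 13 and day 15 of pseudopregnancy. For each probe set (a group of array probes for 1 transcript) it is the mean of the day 13 and the day 15 difference, estrogen minus control, on the scale of log2(signal + 16). All 14 arrays of the series enter it. The genes described first are those whose estrogen and control arrays did not overlap on either day, with estrogen on the same side on both: 15 of 16754 tested probe sets, of which 7 had a gene name.

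Endometrium lines the uterus, and here it came from crossbred cyclic gilts (young female pigs) 8 to 10 months old. When second estrus began, and once more 24 h later, each gilt was given either estrogen or corn oil, the control. The estrogen preparation and its dose are not given in the sources used here. Uteri were flushed with 20 mL of saline before the endometrium was taken and snap-frozen. Day 13 had 4 gilts given corn oil and 4 given estrogen. Day 15 had 3 of each. The labels call them biological replicates, 1 array per gilt. Every gilt was pseudopregnant. The submitters describe the treatment as an endocrine disruption of pseudopregnancy, and these days as spanning attachment of the conceptus in the pig.

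As background, estrogen acts on the endometrium through the nuclear receptor ESR1, and progesterone through PGR. In the pig, the conceptus itself releases estrogen around the time of attachment. That signal helps to maintain the corpora lutea and changes what the glands and surface epithelium secrete. Estrogen given too early in the cycle is known to disturb this sequence. Here the hormone was given at second estrus, long before the tissue was collected, and whether it acted in that way was not tested.

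Arrays give no counts, so their number limits the precision of every value. Median signals were 177 to 217 per array. Replicate 1 of the day 13 controls, replicate 3 of the day 15 controls and replicate 2 of the day 15 estrogen group stood apart. Each had a low median correlation with the rest of the series (0.860, 0.873 and 0.885), while the 11 others had 0.927 to 0.952. Results are therefore given with all 14 arrays and without these 3. Epithelial markers were bright, with mean log2 levels of 13.70 for EPCAM and 12.18 for KRT18, as were the stromal genes VIM, at 13.53, and DCN, at 13.31. Of 14 trophoblast markers, 6 had a named probe set on the array and 1 of these was bright enough to test. In bulk tissue, fewer cells of a type and less RNA per cell cannot be told apart.

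With all 14 arrays, no probe set passed the test for a mean estrogen effect. The count past an adjusted p of 0.05 was 0 of 16754 (0% of all tested) by limma with Benjamini-Hochberg adjustment, and the lowest adjusted p was 1. At an unadjusted p under 0.05 there were 318 probe sets higher with estrogen (1.9%) and 221 lower (1.32%), together 539 (3.22%). The mean difference had a median standard error of 0.19 on the log2 scale, with 0.13 to 0.33 between the 10th and 90th percentiles. A difference over 1 on the log2 scale, in either direction, was seen for 48 probe sets higher and 24 lower. Without the 3 arrays that stood apart the count past the threshold was again 0 (0%), with a lowest adjusted p of 0.371. At an unadjusted p under 0.05, 749 were then higher (4.47%) and 703 lower (4.2%), together 1452 (8.67%).

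The measured differences at the 2 days were close to uncorrelated. Across the 16754 probe sets, which are not independent replicates, the day 13 and the day 15 difference had a Pearson correlation of -0.03 and a Spearman correlation of -0.07. They shared their sign in 7775 probe sets (46.4%). The days share no array. Without the 3 arrays that stood apart these values were 0.16, 0.09 and 8776 probe sets (52.4%). With all arrays, the differences had an SD across probe sets of 0.30 at day 13 and 0.36 at day 15. The median standard error of their mean was 0.19, and each day alone is less precise. At this precision a low correlation does not show that the effects differ between the days. The count of probe sets whose effect differed between the days past an adjusted p of 0.05 was 0 by limma, and 595 had an unadjusted p under 0.05 (3.55%). Without the 3 arrays these were 0 and 1070 (6.39%).

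Probe sets without overlap on both days numbered 15 in the same direction (0.0895% of all tested), 10 higher with estrogen (0.0597%) and 5 lower (0.0298%). Nearly as many, 14 (0.0836%), had no overlap on either day but pointed in opposite directions. On day 13 alone 456 probe sets had no overlap (2.72%), 291 higher with estrogen (1.74%) and 165 lower (0.985%). On day 15 alone, with fewer arrays, there were 1224 (7.31%), 691 higher (4.12%) and 533 lower (3.18%). The rule chose the 15 by these values, so their differences are a description. None of them passed the limma test (adjusted p = 1 for each). Nor did any of them pass for a difference between the days, where the lowest unadjusted p was 0.1104 and the lowest adjusted p 0.990.

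**Figure D1:**
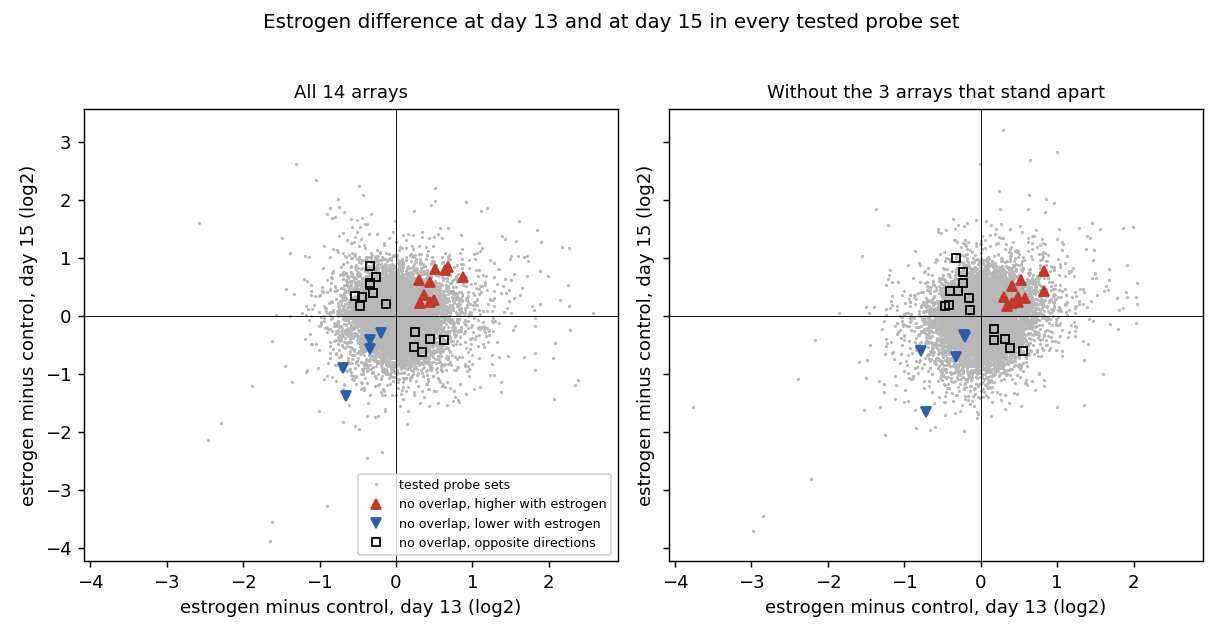
Each point is 1 of 16754 tested probe sets, with the estrogen minus control difference at day 13 on the x axis and at day 15 on the y axis, both on the log2 scale, for all 14 arrays (left) and without the 3 that stood apart (right). Triangles mark the 15 probe sets without overlap in the same direction (10 higher, 5 lower), open squares the 14 in opposite directions, and the cloud has no clear tilt (Pearson -0.03 and 0.16).

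Among the genes higher with estrogen on both days, HEPACAM2 had the lowest p. It encodes a membrane protein of the immunoglobulin superfamily. Its log2 values at day 13 were 7.50, 7.44, 7.77 and 7.84 on the control arrays and 8.45, 8.31, 8.78 and 8.50 on the estrogen arrays. At day 15 they were 7.53, 7.20 and 6.67 in controls and 7.72, 7.82 and 7.88 with estrogen. The highest control lay below the lowest estrogen array on each day, although 2 of the 3 day 15 estrogen arrays lay within the range of the day 13 controls and the highest, at 7.88, just above it. The mean difference was 0.77 ± 0.15 (SE), or 1.71-fold, with 0.87 at day 13 and 0.67 at day 15 (unadjusted p = 0.0001575, the lowest of all probe sets).

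MFSD1, a transporter of the major facilitator superfamily found in lysosomes, was narrowly spread with estrogen and widely spread in controls. The day 13 log2 values were 10.11, 8.98, 9.41 and 10.15 in controls and 10.29, 10.26, 10.38 and 10.42 with estrogen. At day 15 they were 10.28, 9.19 and 9.46 in controls and 10.40, 10.43 and 10.63 with estrogen. All 7 estrogen arrays lay between 10.26 and 10.63, and on each day at least 1 control came close to them. Estrogen arrays were on average 0.76 ± 0.21 (SE) higher, or 1.69-fold. A dimmer probe set for the same gene was tested too and did not meet the rule, so its groups overlapped on at least 1 day. It differed by 0.62 ± 0.19 (SE, unadjusted p = 0.006394), while its adjusted p was 1 by limma.

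MCCC2 encodes a subunit of methylcrotonyl-CoA carboxylase, a mitochondrial enzyme of leucine breakdown. Its log2 values at day 13 were 9.62, 9.75, 9.95 and 9.37 in controls and 10.16, 10.43, 10.01 and 10.13 with estrogen. At day 15 controls had 9.78, 9.68 and 8.21, and estrogen arrays 10.08, 10.00 and 10.03. The control at 8.21 is replicate 3, one of the arrays that stood apart. It enlarged the day 15 mean difference, while the gap between the groups, 0.21, was set by other arrays. Averaged over the days, the difference was 0.66 ± 0.21 (SE), or 1.58-fold, with it and 0.41 without it alone.

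GNB1L, which encodes a WD-repeat protein related to G protein beta subunits, had the largest difference of the 15. Its day 13 log2 values were 7.45, 7.63, 7.63 and 7.78 in controls and 7.14, 7.18, 6.14 and 7.39 with estrogen. At day 15 they were 7.78, 7.44 and 7.58 in controls and 6.20, 6.73 and 5.73 with estrogen. The groups nearly touched at day 13 and lay 0.71 apart at day 15. The mean difference was -1.02 ± 0.21 (SE), 2.03-fold lower, with -0.66 and -1.38 on the 2 days. A brighter probe set for GNB1L, at a mean log2 level of 9.36 against 7.13, differed by -0.06 ± 0.13 (SE).

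ARFGAP3, which switches off the small GTPase ARF1 at the Golgi, was lower with estrogen. Day 13 log2 values were 11.04, 11.21, 10.79 and 10.85 in controls against 10.60, 10.73, 10.53 and 10.66. At day 15 controls had 10.94, 11.07 and 10.59, and estrogen arrays 10.25, 10.32 and 10.36. The mean difference was -0.45 ± 0.11 (SE). Its other probe sets, both dimmer, differed by -0.11 ± 0.16 and 0.00 ± 0.25 (SE).

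The other two named genes had smaller differences. SLC52A2, a riboflavin transporter, had day 13 log2 values of 9.09, 8.53, 8.58 and 8.69 in controls and 8.30, 8.45, 8.34 and 8.45 with estrogen. At day 15 they were 8.86, 8.74 and 9.06 against 8.63, 8.50 and 8.31, and the mean difference was -0.37 ± 0.12 (SE). DPYD, dihydropyrimidine dehydrogenase, which starts the breakdown of pyrimidine bases, had 9.68, 9.78, 9.67 and 9.84 in day 13 controls and 9.43, 9.47, 9.66 and 9.65 with estrogen. Its day 15 values were 9.88, 10.19 and 9.95 against 9.84, 9.83 and 9.52, a mean difference of -0.24 ± 0.11 (SE). In DPYD the groups were separated by as little as 0.02 on the log2 scale.

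The remaining 8 probe sets had no gene symbol here. Of these, 7 were higher by 0.27 to 0.72 on the log2 scale and 1 was lower, by -0.79. Small gaps decided membership: none of the 15 kept a gap of 0.5 on both days. Just outside were SMIM20, where the groups overlapped by 0.0017, and SIK2, where they overlapped by 0.0088. MFSD1, HEPACAM2, MCCC2, ARFGAP3 and SLC52A2 stayed without overlap under quantile normalization and under median centring. GNB1L and DPYD did not under either.

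**Figure D2:**
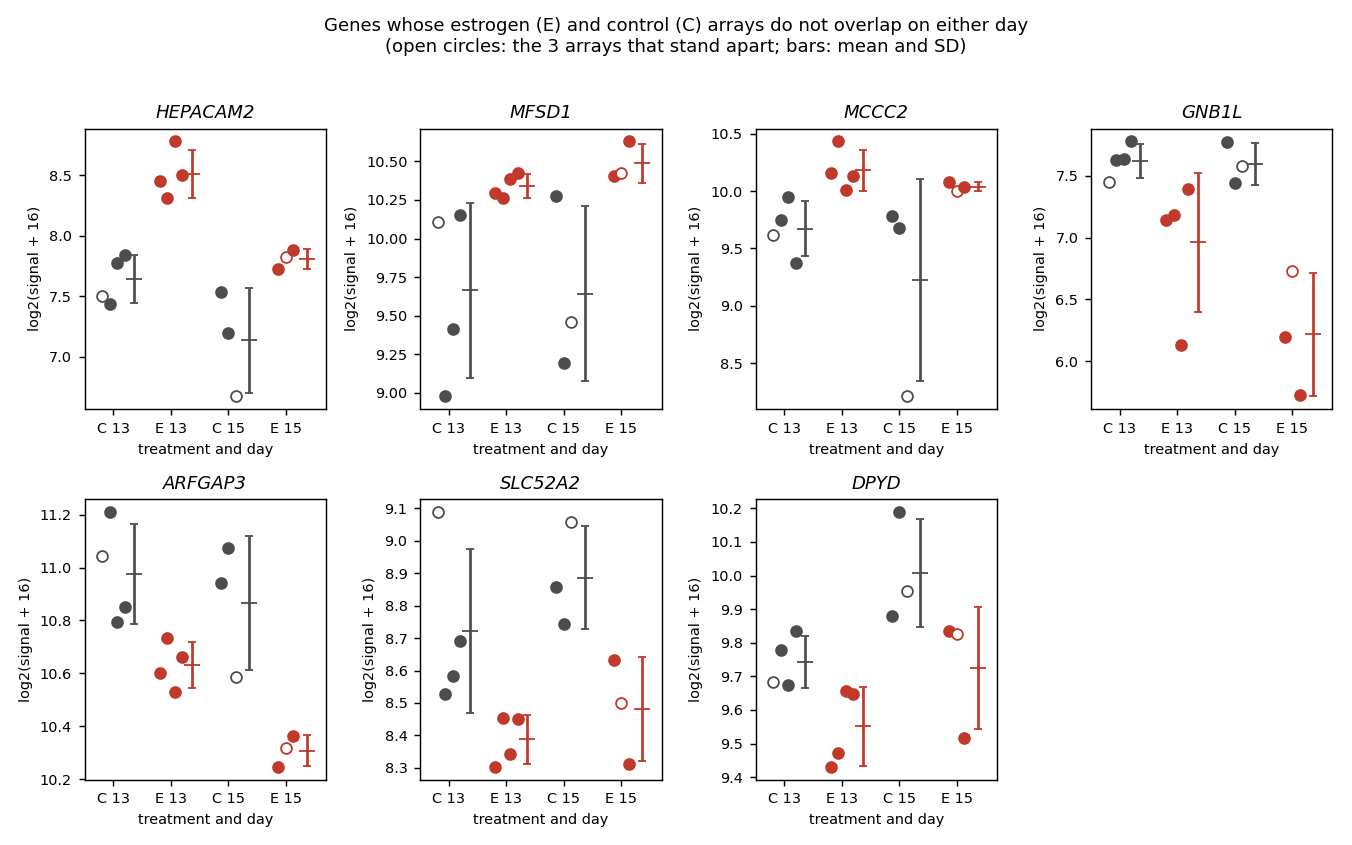
Points are the log2(signal + 16) values of the 7 named genes on each array, by treatment (C, control, grey; E, estrogen, red) and day, with open circles for the 3 arrays that stood apart and bars for group mean and SD. In every panel the estrogen points of a day lie on 1 side of that day's control points, with a gap as small as 0.02 in DPYD and as large as 0.71 in GNB1L.

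Of the 14 probe sets in opposite directions, 9 had a gene name. NAPRT, an enzyme of NAD synthesis from nicotinic acid, differed by -0.26 at day 13 and 0.67 at day 15. POLA2, a subunit of the DNA polymerase that primes replication, differed by -0.35 and 0.53. OXCT1, the enzyme that activates ketone bodies for use in mitochondria, went the other way, 0.34 and -0.62. Their adjusted p for a difference between the days was 0.990 by limma.

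Several genes with low p values had estrogen arrays that stood clear of controls on 1 day only. SCP2, sterol carrier protein, which moves lipids within cells, had day 13 log2 values of 12.06, 11.73, 12.07 and 11.22 in controls and 12.27, 12.50, 12.72 and 12.30 with estrogen. At day 15, 1 control at 12.22 lay just above an estrogen array at 12.19. The mean difference was 0.84 ± 0.20 (SE). WARS, the tRNA synthetase for tryptophan, differed by 0.76 ± 0.19 (SE), with overlap at day 13 only. Its other probe sets differed by 0.51 ± 0.16 and 0.24 ± 0.18 (SE).

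ATP6V0D2, a subunit of the proton pump that acidifies vesicles, averaged a difference of 0.97 ± 0.25 (SE) that came almost wholly from day 13. Controls at day 13 lay at 8.40, 8.41, 8.15 and 8.53, and estrogen arrays at 9.99, 10.52, 10.56 and 9.54. At day 15 the groups overlapped, with 9.05, 7.74 and 9.28 against 8.37, 9.16 and 9.05. The day 13 difference was 1.78 and the day 15 difference 0.17.

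Among genes lower with estrogen, SIK2, a salt-inducible kinase, differed by -0.80 ± 0.19 (SE). Its other tested probe sets differed by -0.33 ± 0.18 and -0.02 ± 0.18 (SE). SDHAF2, an assembly factor of succinate dehydrogenase, differed by -0.68 ± 0.16 (SE), and by -0.22 ± 0.21 on a second probe set. HNRNPL, an RNA-binding protein of splicing, had the largest mean difference of these, -2.30 ± 0.60 (SE). Its estrogen arrays were split, however, with day 13 values of 7.29, 7.14, 7.70 and 10.25 and day 15 values of 10.47, 6.17 and 8.69, while all controls lay between 10.17 and 11.05. On each day 1 estrogen array was within the control range. The limma adjusted p was 1 for every gene in these paragraphs.

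CCL28 and CREB3L4 had large differences at day 13 and 1 discordant control at day 15. CCL28 is a chemokine of mucosal epithelia that attracts antibody-secreting cells, and it is named also because it passed without 1 array, a choice made after its values were seen. Its day 13 log2 values were 9.59, 9.49, 9.98 and 10.62 in controls and 11.42, 11.55, 11.72 and 11.39 with estrogen. At day 15 the controls had 10.36, 7.37 and 7.53 and the estrogen arrays 9.51, 9.17 and 9.69. Control replicate 1 thus lay above all estrogen arrays of its day and the other two controls well below them. Over all arrays the difference was 1.32 ± 0.38 (SE, unadjusted p = 0.00414), or 2.49-fold, with an adjusted p of 1 by limma.

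CREB3L4, a transcription factor held in the endoplasmic reticulum membrane, also had a high control replicate 1 at day 15, within the range of that day's estrogen arrays. At day 13 controls had 8.30, 8.64, 7.98 and 8.65 and estrogen arrays 10.02, 10.38, 10.14 and 9.72. At day 15 controls had 8.96, 7.31 and 6.03 and estrogen arrays 8.25, 8.02 and 9.07. Over all arrays CREB3L4 differed by 1.34 ± 0.35 (SE), or 2.54-fold.

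Leaving out control day 15 replicate 1 alone let 4 probe sets pass, CCL28, CREB3L4 and 2 without a symbol. CCL28 then differed by 1.80 ± 0.19 (SE, limma adjusted p = 0.005371) and CREB3L4 by 1.73 ± 0.25 (adjusted p = 0.04541). The unnamed probe sets differed by 0.93 and 1.45 (adjusted p = 0.02921 and 0.04541). That array is not among the 3 that stood apart: its median correlation with the others, 0.952, was the highest of the series. Without the 3 that did stand apart, and with this one kept, CCL28 differed by 1.11 ± 0.43 (SE) and had an adjusted p of 0.517. Leaving it out also gave 53 more probe sets without overlap and higher with estrogen, 16 of them named, and 5 lower, all named. They included FBXO2, a ubiquitin ligase subunit for glycoproteins, at 1.20, and CEBPD, a transcription factor of the acute phase response, at -1.02. The full count in the same direction was then 73 of 16754, against 15 with all arrays. Such a rise was not particular to this array, since smaller groups overlap less often by their size alone. The count was 49 without estrogen day 15 replicate 2 and 83 without control day 13 replicate 1.

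**Figure D3:**
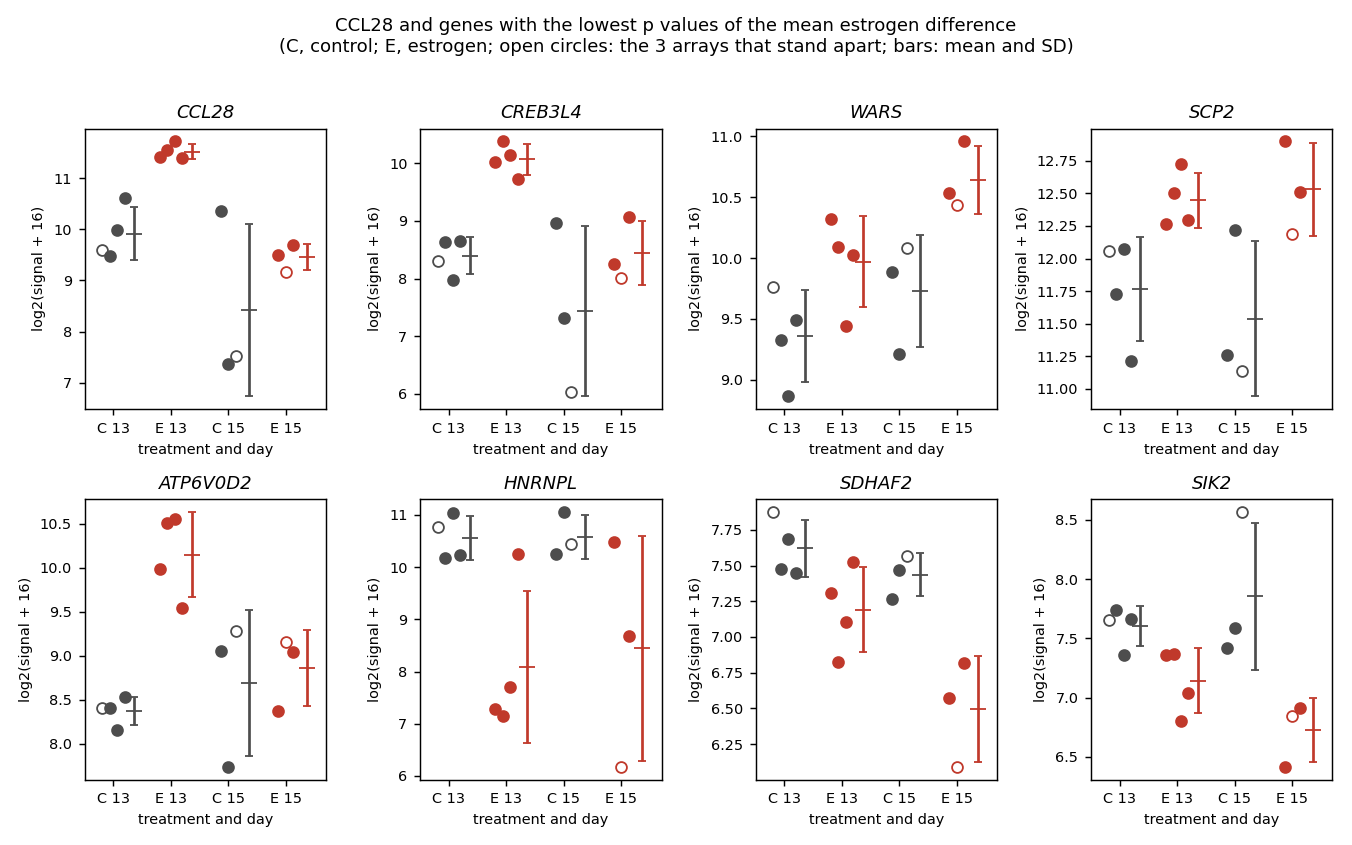
Points are log2(signal + 16) values per array for CCL28 and for genes with the lowest p of the mean estrogen difference, by treatment (C, control, grey; E, estrogen, red) and day, with open circles for the 3 arrays that stood apart and bars for mean and SD. At day 15, control replicate 1 lies at 10.36 for CCL28 and 8.96 for CREB3L4, far above the other two controls, and for HNRNPL the estrogen arrays are split on both days.

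Without the 3 arrays that stood apart, the count of probe sets without overlap on either day was 254 (1.52%), 168 higher with estrogen (1%) and 86 lower (0.513%). The 15 are among them by definition, since leaving arrays out cannot create overlap. Opposite directions were found for 148 (0.883%). Smaller groups overlap less often by their size alone, and at day 15, with 2 arrays against 2, 6237 probe sets had no overlap (37.2%), 3115 higher and 3122 lower (18.6% each). At day 13 there were 1169 (6.98%), 742 higher (4.43%) and 427 lower (2.55%). The 254 cover 139 named genes, and their median absolute difference was 0.41 on the log2 scale.

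DEFB1, a beta-defensin with antimicrobial activity, had the largest difference among genes that joined the higher set in this way. At day 13 its log2 values were 8.68, 8.39, 8.18 and 8.62 in controls and 9.88, 9.56, 10.66 and 9.32 with estrogen, with no overlap. At day 15 they were 9.60, 8.58 and 6.70 in controls and 10.79, 7.64 and 10.62 with estrogen, where 6.70 and 7.64 come from arrays that stood apart. The difference was 1.39 ± 0.51 (SE) with all arrays and 1.53 ± 0.25 without the 3, when the limma adjusted p was 0.371. A dimmer probe set for DEFB1 differed by 0.11 ± 0.24 (SE) over all arrays.

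EGFL6, a secreted protein with EGF repeats, had the same form, with 0.81 ± 0.29 (SE) over all arrays and 0.90 ± 0.22 without the 3. CENPH, a kinetochore protein, differed by 0.91 ± 0.15 (SE) without them, when control day 13 replicate 1 at 9.01 was no longer above all estrogen arrays of its day. LDHD, a mitochondrial lactate dehydrogenase, differed by 1.00 ± 0.24 and SUPT3H, a transcription coactivator subunit, by 0.90 ± 0.31 (SE). The other tested probe set of SUPT3H had the opposite sign over all arrays, -0.18 ± 0.24 (SE).

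UPK1B, a uroplakin of epithelial surfaces, was decided by the arrays left out. Control day 13 replicate 1 had 13.74, against 5.90 to 6.55 on the other day 13 controls, and estrogen day 15 replicate 2 had 12.07, against 7.69 and 8.34. With all arrays the difference was 0.66 ± 1.06 (SE), and without the 3 it was 1.00 ± 0.23.

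Lower with estrogen without the 3 arrays were RERG, a Ras-related protein named for its regulation by estrogen, and TGIF1, a repressor of TGF-beta signalling. RERG had 9.42, 9.27 and 8.81 in the remaining day 13 controls against 8.59, 8.52, 8.75 and 8.35 with estrogen, and 8.82 and 8.91 against 7.94 and 8.17 at day 15. The difference was -0.71 ± 0.14 (SE), against -0.54 ± 0.31 over all arrays. TGIF1 differed by -0.65 ± 0.15 (SE) without the 3, and over all arrays a second, brighter probe set had -0.32 ± 0.24. PQLC3, a PQ-loop membrane protein, differed by -0.65 ± 0.16, and over all arrays its second probe set had -0.53 ± 0.21 (SE). USP7, a deubiquitinating enzyme, differed by -0.59, LOC100157453 by -0.73 and LOC100623720 by -0.70. Over all arrays a brighter USP7 probe set had -0.008 ± 0.30 (SE), and a brighter one for LOC100157453 had -0.21 ± 0.17. The other tested probe sets of LOC100623720 had -0.22 ± 0.18 and -0.27 ± 0.21 (SE) over all arrays. None of these genes passed the limma test with or without the 3 arrays, with adjusted p of 0.371 to 0.5 without them.

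**Figure D4:**
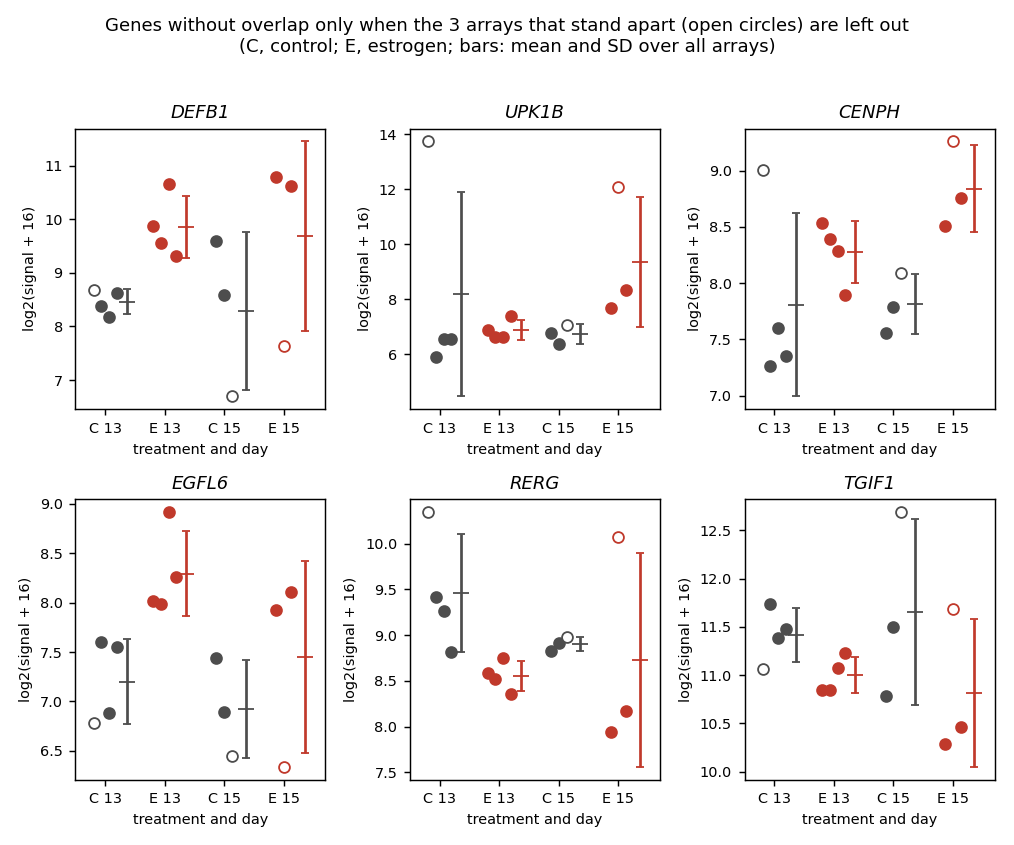
Points are log2(signal + 16) values per array for 6 genes whose groups separate on both days only when the 3 arrays that stood apart (open circles) are left out, by treatment (C, control, grey; E, estrogen, red) and day. Bars are mean and SD over all arrays. For UPK1B, open circles at 13.74 and 12.07 lie far beyond the filled ones of their groups. Others lie close to the filled ones, as for DEFB1 at 8.68 on control day 13 replicate 1.

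The hormone receptors and IHH differed by less than their standard errors. ESR1, the estrogen receptor, had day 13 log2 values of 9.88, 8.10, 8.36 and 8.77 in controls and 8.97, 8.84, 8.87 and 8.92 with estrogen. At day 15 the values were 8.58, 8.72 and 8.77 against 8.26, 8.83 and 9.28. Its mean difference was 0.11, with a 95% interval of -0.41 to 0.63. PGR, the progesterone receptor, differed by 0.13 (-0.59 to 0.85), and its highest value, 11.32, was on control day 13 replicate 1. IHH, a secreted signal that progesterone induces in uterine epithelium, differed by -0.17 (-0.55 to 0.21). Without the 3 arrays ESR1 differed by 0.31 ± 0.19 (SE), PGR by 0.23 ± 0.17 and IHH by -0.29 ± 0.19, each by more than its standard error.

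Gene lists are described by counts and medians, each gene by its brightest probe set. Of all 5785 named genes, 3053 were higher with estrogen (52.8%) and the median difference was 0.01 on the log2 scale. Without the 3 arrays that stood apart, 3255 were higher (56.3%) and the median was 0.03, the background for the list counts without them. In every list the count past the limma threshold was 0. Of 24 list medians, 15 changed sign when some 1 array was left out. Among named genes by brightest probe set, 6 had no overlap on either day (0.104%), and no list held any of them.

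Of 11 steroid receptors and cofactors, 8 were higher (median 0.11), and 6 without the 3 arrays (median 0.05). Without estrogen day 15 replicate 3 alone the median was 0.0007. Of 18 estrogen and progesterone response genes 9 were higher (median -0.01). Within the response genes, TFF1, a secreted trefoil peptide and classical estrogen target, differed by -0.48 ± 0.24 (SE), with -0.06 at day 13 and -0.91 at day 15. FOXO1, a transcription factor of the progesterone-primed stroma, differed by -0.49 ± 0.27 (SE). It had -0.12 at day 13 and -0.86 at day 15, and -0.55 and -0.56 without the 3 arrays. NR3C1, the glucocorticoid receptor, differed by -0.40 ± 0.22 and FKBP5, a receptor cochaperone, by 0.62 ± 0.48 (SE).

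Gland secretions were higher for 12 of 19 members (median 0.09). SAL1, a salivary lipocalin, ranged from 6.48 on control day 13 replicate 1 to 14.44, and its difference was 1.72 ± 1.08 (SE) with all arrays and 0.79 ± 0.59 without the 3. RLBP1, a retinoid-binding protein, differed by 1.82 at day 13 and -0.64 at day 15. Of 9 prostaglandin and oxytocin genes 6 were lower (median -0.06). PTGFR, the receptor of prostaglandin F2-alpha, differed by 0.46 ± 0.27 (SE). OXT, the oxytocin precursor, differed by -2.07 ± 1.24 (SE), with values from 4.88 to 11.95 within day 13.

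Among 24 transport genes, 11 were higher and 13 lower (median -0.03). AQP3, a water and glycerol channel of epithelia, differed by 1.46 ± 0.51 (SE), or 2.76-fold. At day 13 it had 13.30, 11.85, 11.26 and 12.35 in controls and 13.63, 13.23, 12.90 and 13.46 with estrogen. At day 15 controls had 12.14, 9.88 and 7.96 and estrogen arrays 12.05, 11.13 and 12.23. The groups overlapped on both days, and without control day 15 replicate 3 alone the difference was 0.96. SLC11A2, an iron transporter, differed by -0.70 ± 0.30 (SE).

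Interferon response and antigen presentation genes were higher in 30 of 33 cases, the most uneven split of the lists with over 5 genes, with a median of 0.19. The days did not match: the median was -0.24 at day 13 and 0.66 at day 15. IFIT2, an interferon-induced antiviral protein, differed by 0.07 and 0.78 on the 2 days, and SLA-DOA, a class II accessory chain, by -0.03 and 1.06. The list's mean level relative to its average over all arrays was 1.38 on estrogen day 15 replicate 3 and 0.57 or less on every other array. Without that array the median was 0.02. Myeloid markers were higher in 6 of 10 cases (median 0.18, -0.12 at day 13 and 0.39 at day 15). Their mean level was 0.52 to 0.99 on estrogen day 15 arrays against 0.17 to 0.73 on day 15 controls. The 2 lists did not match on every array: control day 15 replicate 3 had -0.45 for interferon genes and 0.20 for myeloid markers. Day 13 values were -0.84 to -0.10 with estrogen and -0.74 to 0.03 in controls. Lymphocyte and natural killer markers were higher in 4 of 7 cases (median 0.07), with a mean level of 0.12 to 0.95 on estrogen day 15 arrays and -0.47 to 0.58 on day 15 controls. The part of these cells in the result was not tested.

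Cytokines and chemokines were higher in 9 of 19 cases (median -0.09). The medians were -0.27 at day 13 and 0.53 at day 15, and the median of the mean effect was 0.039 without estrogen day 15 replicate 2 alone. Among the higher genes were CCL28 and PIGR, the receptor that carries antibodies across epithelia. PIGR differed by 0.53 ± 0.22 (SE), with -0.16 at day 13 and 1.23 at day 15. Complement and protease inhibition genes were lower in 15 of 22 cases (median -0.08, with -0.23 at day 13 and 0.11 at day 15). Of the same 22, 14 were higher without the 3 arrays (median 0.13). F3, tissue factor, differed by -0.96 ± 0.32 (SE), with -1.02 and -0.89 on the 2 days, but -1.26 and -0.089 without the 3 arrays. CFD, a complement protease, differed by -0.46 ± 0.21 (SE).

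Collagens and matrix genes were lower in 19 of 25 cases (median -0.14), and in 13 of 25 without the 3 arrays (median -0.04). Without control day 13 replicate 1 alone the median was -0.032. MMP2, a gelatinase, differed by -0.52 ± 0.20 (SE), with -0.60 and -0.45 on the 2 days. COL1A2, a chain of type I collagen, differed by -0.46 ± 0.16, with -0.06 and -0.86. Growth factors and binding proteins were lower in 17 of 23 cases (median -0.09), attachment and junction genes in 16 of 22 (median -0.09). TGFB2 differed by -0.34 ± 0.16 (SE), with 0.01 at day 13 and -0.69 at day 15. CDH1 differed by -0.18 ± 0.11, with -0.36 at day 13 and 0.001 at day 15. IGFBP6 differed by 0.57 ± 0.31 and ITGB1 by -0.18 ± 0.10 (SE).

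Cell cycle genes were higher in 13 of 21 cases (median 0.14), with medians of -0.37 at day 13 and 0.72 at day 15. The 2 highest levels of this list, 0.97 and 1.46, were on control day 13 replicate 1 and estrogen day 15 replicate 2, both arrays that stood apart. Without the 3 the medians were -0.07 at day 13 and 0.20 at day 15. MCM2, a replication helicase subunit, differed by 0.50 ± 0.39 (SE). It had 0.007 at day 13 and 0.98 at day 15, and 0.64 and 0.59 without the 3 arrays. CDKN1A, a cell cycle inhibitor, differed by -0.34 ± 0.23 (SE). Without control day 15 replicate 3 alone the CDKN1A difference was -0.122.

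The metabolic lists had small medians. Oxidative phosphorylation genes were higher in 25 of 31 cases both with and without the 3 arrays (median 0.09 in each). With all arrays the median was 0.19 at day 13 and 0.0021 at day 15, and without estrogen day 15 replicate 1 alone the mean of both days had a median of 0.038. NDUFA5 differed by 0.35 ± 0.15 and NDUFA4 by 0.23 ± 0.13 (SE), both parts of the respiratory chain. Chaperone and endoplasmic reticulum genes were higher in 22 of 29 cases (median 0.04), hypoxia and glycolysis genes in 13 of 22 (median 0.04). PDIA3, a protein disulfide isomerase, differed by 0.22 ± 0.13 and DNAJB1, a heat shock cochaperone, by -0.35 ± 0.20 (SE). DNAJB1 had 0.07 at day 13 and -0.77 at day 15, and -0.23 and -0.56 without the 3 arrays. LDHB and HK1, enzymes of glucose use, differed by 0.26 ± 0.13 and -0.25 ± 0.16. Cholesterol and steroid metabolism genes were lower in 16 of 24 cases (median -0.06), and higher in 16 of 24 without the 3 arrays (median 0.08). HSD11B2, which inactivates cortisol, differed by 0.68 ± 0.29 and ABCA1, a cholesterol exporter, by -0.45 ± 0.29 (SE).

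**Figure D5:**
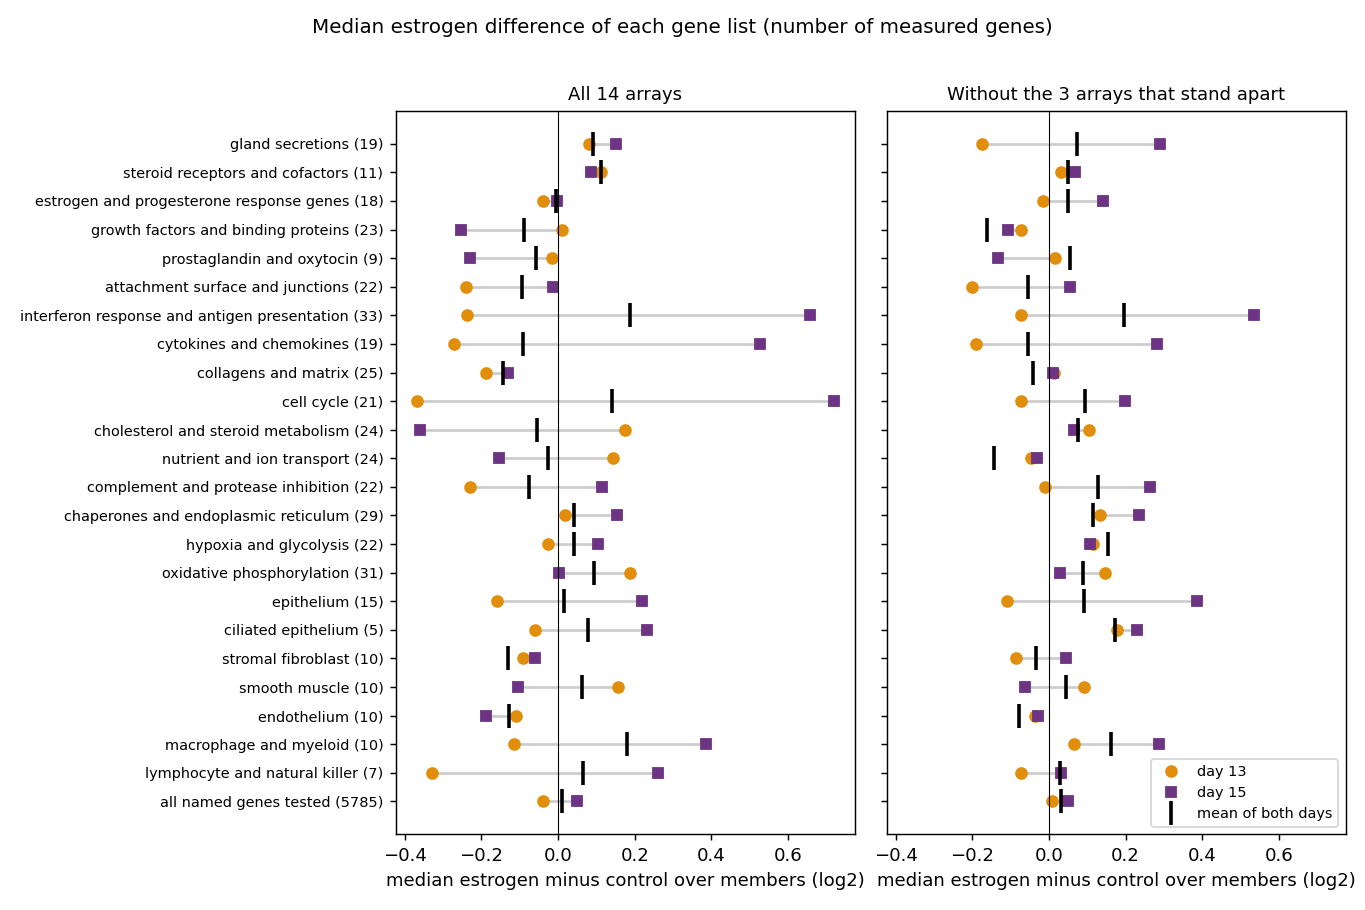
For each gene list with at least 5 measured genes (number in brackets), the median estrogen minus control difference on the log2 scale is shown at day 13 (circle), at day 15 (square) and for the mean of both days (bar), with all 14 arrays (left) and without the 3 that stood apart (right). Interferon and cell cycle genes lie on opposite sides of 0 on the 2 days (-0.24 and 0.66, -0.37 and 0.72 with all arrays), and all named genes lie near 0.

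Markers of cell types had medians between -0.13 and 0.27. Epithelial markers were higher in 9 of 15 cases (median 0.01), where KRT18 differed by 0.26 ± 0.14 (SE), and ciliated epithelium in 5 of 5 (median 0.08), where TPPP3 differed by 0.23 ± 0.21 and ROPN1L by 0.13 ± 0.21. Stromal fibroblast markers were lower in 8 of 10 cases (median -0.13), endothelial markers in 7 of 10 (median -0.13). THY1, a stromal surface protein, differed by -1.22 ± 0.62, and CDH5, the endothelial cadherin, by -0.31 ± 0.13 (SE). Smooth muscle markers were higher in 6 of 10 cases (median 0.06), red blood cell markers in 1 of 3 (median -0.01), and the 1 trophoblast marker tested, GCM1, differed by 0.27 ± 0.31. CD209 and TYROBP, of myeloid cells, differed by 0.77 ± 0.35 and 0.36 ± 0.30 (SE). TYROBP had -0.11 at day 13 and 0.84 at day 15, and 0.26 and 0.83 without the 3 arrays that stood apart.

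RNA quality was read from control probe sets, as the log2 signal at the 3' end of a transcript minus that at its 5' end. By exact permutation tests, the treatments differed by 0.15 for GAPDH (p = 0.6271), 0.27 for actin (p = 0.2871) and 0.05 for EF1A (p = 0.4086). The exact test permuted labels within each day, over 1400 arrangements, and was two-sided. The GAPDH difference ran from 1.09 to 2.84 at day 15 and from 1.86 to 2.58 at day 13. The mean standardised score of the 3 transcripts was 1.88 and 1.44 on estrogen day 15 replicates 1 and 3, and 0.49 or less on every control. These are the 2 estrogen arrays that remain at day 15 without the 3 that stood apart, against controls at 0.49 and -0.60, so the score differs with treatment in that comparison. With RNA quality as a covariate the count past the threshold was again 0 by limma. At an unadjusted p under 0.05 there were 656 probe sets with all arrays, against 539 without the covariate, and 815 without the 3 arrays, against 1452.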

How the data were processed

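Endometrial RNA of 14 gilts was hybridised to porcine Affymetrix arrays. The deposited values are linear signal intensities, made by the authors, 1 per probe set and array. Their 2% trimmed means are all 500.1, so they were scaled between arrays before deposition; the software is not given in the sources used here. Of 24123 probe sets, 188 controls and the dimmest 30% (mean log2 under 6.35) were left out, leaving 16754. Symbols came from the platform annotation: 10099 probe sets had 1, 198 several and 13826 none; 9989 gene identifiers matched the reference table and 110 did not.

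Values were log2(signal + 16). A fit of 4 groups in limma 3.58.1 under R 4.3.3 (eBayes with trend, Benjamini-Hochberg) gave the mean of the day 13 and day 15 differences. Both days count equally. No coverage or count exists. Scripts were tested on simulated data. Figures used matplotlib 3.10.9.

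Members, gene lists and tests were chosen with earlier results of these data known. Named genes were those without overlap on both days, the 5 lowest p each way, up to 2 lowest-p members per list with ESR1, PGR and IHH, up to 6 each way without overlap only after the 3 arrays were left out, and, for description, genes without overlap in opposite directions or without 1 array. There are 16 process lists and 9 marker lists, some sharing genes. Alternatives were scaling, filter, pseudocount, array weights, RNA quality, a replicate block and leaving arrays out. Same-numbered control and estrogen arrays had correlated deviations (over 0.1) in 4 of 4 pairs at day 13, at 0.13 to 0.28, and 1 of 3 at day 15. Arrays of unlike number had them in 1 of 12 pairs at day 13, at 0.10, and 4 of 6 at day 15. The days differed in this, so the numbers were not taken as pairs in the main fit.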

Additional observations from a re-analysis of the deposited data

Results flagged for a closer look

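In the groups of 4 arrays at day 13, 160 were examined for 1 array far from the rest (Dixon's test), and 11 were flagged; chance flags about 1 in 20 groups. Of the 11, 7 fell on control day 13 replicate 1, one of the 3 arrays that stood apart. On it, UPK1B had a log2 value of 13.74 against 5.90 to 6.55 on the other day 13 controls, and PGR 11.32 against 8.91 to 9.30. LOC100157453 had 8.35 there, against 9.44 to 9.58, and USP7 8.52, against 10.03 to 10.11. SAL1 had 6.48 against 13.19 to 14.11, FKBP5 had 8.31 against 10.88 to 11.38, and OXT had 5.71 against 11.16 to 11.95. UPK1B, LOC100157453 and USP7 were named because their groups separate only without the 3 arrays that stood apart. An extreme value on 1 of those arrays was therefore favoured by the choice, and the chance rate does not apply to these genes.

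On other arrays, NR3C1 had 6.92 on estrogen day 13 replicate 3, against 8.03 to 8.24. On estrogen day 13 replicate 4, SLA-DOA had 7.38 against 6.12 to 6.24, and LOC100157453 had 9.02 against 9.23 to 9.24. For GAPDH, the log2 signal at the 3' end minus that at the 5' end was 2.58 on control day 13 replicate 3, against 1.99 to 2.09.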

How the results depend on the processing

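Of 29 settings, 1 gave any probe set past the threshold: leaving out each array gave 0 to 4, with 4 without control day 15 replicate 1. Counts at an unadjusted p under 0.05 were 177 to 1452 over all settings. The number tested differed: the 177 are of 5785 named genes by brightest probe set, the 1452 of 16754 probe sets. The count without overlap on both days was 15 of 16754 (0.0895%) in the main fit. With no filter on dim probe sets it was 24, out of the larger number of 23935. Of 16754, it was 254 (1.52%) without the 3 arrays that stood apart and 0 with a gap of at least 0.5. It was 16 to 83 without 1 array (83 without control day 13 replicate 1), where smaller groups overlap less often by size alone. It was 19 with quantile normalization, 10 of them among the 15, and 18 with median centring, 8 of them among the 15. With the replicate block the count past the threshold was 0 (554 at an unadjusted p under 0.05), and 0 with the block and without the 3 arrays (1034), which leaves 1 complete pair at day 15. With no call in the main fit, the block had none to remove, and it added none.

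Of 76 named probe sets, 15 changed sign under some setting, none of them among the 7 genes without overlap. Without the 3 arrays HBM was 0.19 and GCM1 -0.094. With array weights HBB was -0.0048 and HBM 0.14. With the replicate block and without the 3 arrays, SAL1 was -0.56, FKBP5 -0.18, CFD 0.0011, TPPP3 -0.12, ROPN1L -0.075, CNN1 -0.079, HBB -0.013 and GCM1 -0.47. With RNA quality as a covariate and without the 3 arrays, SAL1 was -0.20, FKBP5 -0.29, LDHB -0.027, HK1 0.11, ROPN1L -0.062, CNN1 -0.12, TPM2 -0.080, HBM 0.050 and GCM1 -0.84. Without 1 array, ESR1 ran from -0.010 (without estrogen day 15 replicate 3) to 0.297, PGR from -0.029 (without estrogen day 15 replicate 2) to 0.412, UPK1B from -0.014 (without that same array) to 1.59, CNN1 from -0.0060 to 0.297, TPM2 from -0.0083 to 0.310, HBB from -0.026 to 0.215 and HBM from -0.167 to 0.115. Of 24 list medians, 15 changed sign without some 1 array, and 9 did not; cell cycle ran from -0.09 to 0.34. The cause was not tested. Arrays, not counts, limit the precision here.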
